A study of Homo sapiens with 27 samples.

Results

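MM134 LTED-B, a variant of an invasive lobular breast carcinoma cell line that grew without estrogen, was compared with the MM134 parental line by RNA-Seq. The comparison was taken from the sample labels as the 3 LTED-B and the 3 parental libraries, which are 6 of the 27 libraries of the series, and covers every gene that passed a filter on low counts (26061 of 60619 genes). MM134 (MDA-MB-134VI) is an estrogen receptor-positive line grown from a metastatic effusion. Both groups were sampled in medium stripped of hormones: the parental cells were deprived for 3 days before collection, whereas LTED-B had been kept for months in IMEM with charcoal-stripped serum. LTED stands for long-term estrogen deprivation. LTED-A, LTED-D and LTED-E, with 3 libraries each, are other variants derived in parallel from MM134 cells under the same deprivation, and they served here to show where LTED-B differs from the rest. SUM44 cells, the other line of the series, were not used in these tests. Each variant is 1 derivation, and its libraries come from wells seeded in triplicate, so the p-values measure the spread between wells. Estrogen independence, time in the medium and the chance history of 1 derivation cannot be told apart in LTED-B.

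Estrogen deprivation of luminal breast cancer cells models treatment with aromatase inhibitors, which block the conversion of androgens to estrogens. Without ligand the estrogen receptor no longer drives its target genes, and cells that grow out are known to alter receptor signalling, growth factor pathways or lipid metabolism. Because each such culture passes through a narrow outgrowth, variants from the same line can carry different expression states.

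Levels are given as CPM (counts scaled to a common library total), normalized by the trimmed mean of M-values, as mean ± SD of the 3 libraries (n = 3 throughout). A gene is called changed where the fold change is above 1.5 and the Benjamini-Hochberg adjusted p of the edgeR quasi-likelihood test, over all genes tested, is under 0.001. The parental libraries held 28583554 to 33811162 estimated counts and the LTED-B libraries 42051154 to 44018412. The LTED-A libraries were deeper, at 54982585 to 101378762. The 3 most abundant genes took 7.33% to 8.91% of the counts of a parental library and 12.6% to 13.7% of an LTED-B library. Parental replicate 3 stood apart in fibroblast transcripts: COL3A1, a fibrillar collagen, was at 0.113, 0.0534 and 5.51 CPM in the parental libraries, and LUM, a matrix proteoglycan, at 0, 0 and 2.77 CPM. LTED-B replicate 3 also stood apart: the chi-square per degree of freedom over genes was 9.15 and 10.0 against LTED-B replicates 1 and 2, which gave 2.35 between them, and parental replicate 3 gave 9.59 and 7.01 where the other parental pair gave 3.45. The summed level of the 10 fibroblast markers was 22.1 to 37.5 CPM in parental and 14.8 to 16.1 CPM in LTED-B libraries. Without parental replicate 3 and LTED-B replicate 3, the counts of calls given next were 1982 up and 1979 down.

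LTED-B differed from parental cells in 4135 genes (15.9% of genes tested), of which 2114 rose (8.11%) and 2021 fell (7.75%). Among the called genes, 1273 rose and 1301 fell more than 2-fold, and 340 rose and 333 fell more than 8-fold. The median over all genes was 0.02 on the log2 scale. Compared with the mean of the other 3 variants, 711 genes were higher (2.73%) and 757 lower (2.90%) in LTED-B. Against single variants, LTED-B was higher in 781 and lower in 1058 genes than LTED-A (3.00% and 4.06%), higher in 677 and lower in 1252 than LTED-D (2.60% and 4.80%), and higher in 1517 and lower in 1033 than LTED-E (5.82% and 3.96%). In bulk RNA, fewer cells of a type and less RNA per cell cannot be told apart.

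Of 18 genes of luminal and lobular identity 6 rose (33.3%) and 2 fell (11.1%) against parental, with a median of 0.21, and 1 was higher and 2 lower than the mean of the other variants. For this list and those below, 8.11% of all genes rose and 7.75% fell against parental. Against that mean, 2.73% of all genes were higher and 2.90% lower. The defining luminal markers were expressed in both groups. FOXA1 and GATA3, transcription factors of luminal cells, were at 402 ± 2.62 and 163 ± 16.6 CPM in parental cells and at 433 ± 11.8 and 161 ± 6.01 CPM in LTED-B. The luminal keratins KRT8 (log2 fold change 0.79) and KRT19 (0.60) rose, and EPCAM was at 252 ± 3.58 and 288 ± 6.07 CPM. CDH1, the E-cadherin gene that lobular carcinomas lose, was at 12.9 ± 0.189 CPM in parental cells and 11.3 ± 0.812 CPM in LTED-B. Of 4 tested markers of immune cells 3 rose, and the summed level of all 12 went from 1.63–2.64 to 12.2–13.1 CPM. Those that rose were the myeloid genes LYZ (log2 fold change 2.69), ITGAM (3.13) and CD68 (5.04), while the T cell genes CD3E and CD3D had no count in either group. Of 5 tested endothelial markers none was called, and of 4 basal mammary markers 1 rose. The part of such cells in the results was not tested.

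The largest rises against parental cells were in genes that parental cells barely expressed. AGR3, a secretory-pathway protein of luminal tumours encoded on chromosome 7 (16859412 to 16881987, hg38), was at 0.0283, 0 and 0.0322 CPM in the parental and 46.2, 45.9 and 51.7 CPM in the LTED-B libraries. With at most 1 count in a parental library, its difference is at least 549-fold against a floor of 3 counts per library. PLS3, an actin-bundling plastin on chromosome X, was at least 1444-fold higher, at 123, 124 and 131 CPM in LTED-B. Both genes separated the groups without overlap, and both were also expressed in LTED-A, LTED-D and LTED-E (AGR3 at 58.4, 7.86 and 16.6 CPM, PLS3 at 159.8, 124 and 32.6 CPM). UGT2B4, a glucuronosyltransferase of steroid and bile acid disposal, went from 0.562 ± 0.0984 to 598 ± 18.6 CPM. Reads shared among the closely related UGT2B genes make the split between them uncertain. AZGP1, a secreted zinc-binding glycoprotein, went from 1.64 ± 0.272 to 573 ± 19.8 CPM (log2 fold change 8.44, SE 0.07, adjusted p = 4.36e-23), and S100A14, a calcium-binding protein, from 0.193 ± 0.00568 to 86.0 ± 3.83 CPM. FOLR3, MARK1 and GASK1B were at least 102-fold, 107-fold and 57.4-fold higher.

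The largest falls included PLAAT5, an acyltransferase of the PLAAT family, which went from 56.3 ± 1.91 to 0.234 ± 0.241 CPM (log2 fold change −7.87, SE 0.21, adjusted p = 4.27e-16). SH3BGRL, a small thioredoxin-like adaptor, was at 81.9, 77.3 and 83.8 CPM in parental and at 0.929, 0.305 and 0.394 CPM in LTED-B libraries. Here the variants split, since SH3BGRL was at 9.80 CPM in LTED-A, 0.0478 in LTED-D and 68.5 in LTED-E. EYA2, a transcriptional coactivator and phosphatase, had no more than 3 counts per library in LTED-B and 13.9, 14.9 and 13.1 CPM in parental cells, a difference of at least 196-fold. The neuronal genes BRINP1 (−6.78) and RIMS4 (−6.78) fell in log2 fold change, from 27.2 and 13.4 CPM. PLAAT5, RIMS4 and BRINP1 were under 0.3 CPM on average in each of the 4 variants.

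Genes particular to LTED-B were taken as those that passed the test against parental, LTED-A, LTED-D and LTED-E, each in the same direction. There were 53 such genes higher in LTED-B (0.203% of genes tested, 35 of them protein coding) and 106 lower (0.407%, 97 protein coding). Of the 49 higher genes with a position, 9 (18.4%) lie on chromosome 15, which holds 3.64% of the tested genes with a position. Of these 9, 6 are overlapping transcripts of 1 region, given below, and not independent genes. Of the 106 lower genes, 18 lie on chromosome 17 and 16 on chromosome 1, which hold 6.29% and 9.68% of the tested genes with a position. Without parental replicate 3 and LTED-B replicate 3, the counts were 52 and 104, of which 47 and 91 were the same genes.

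**Figure D1:**
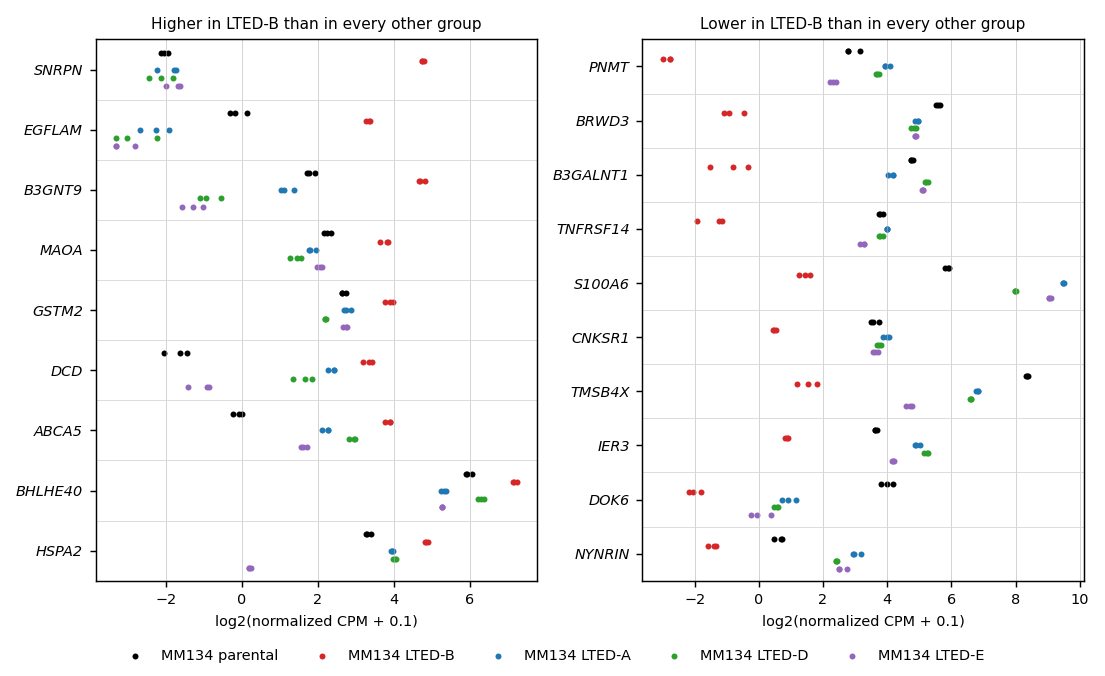
Normalized level, as log2(CPM + 0.1), of protein-coding genes with the largest smallest difference from the other groups, 9 higher (left) and 10 lower (right). Each point is 1 library, coloured by group, with 3 libraries per group. The LTED-B libraries lie to the right of all others in the left panel (SNRPN 26.9 CPM against 0.133 to 0.195 in the other groups) and to the left of all others in the right panel.

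The difference that set LTED-B apart most among higher genes was the imprinted region of chromosome 15q11, which is normally read from the paternal copy only. SNRPN, which encodes a core protein of the spliceosome (chromosome 15, 24823637 to 24978723, plus strand), was at 0.142, 0.160 and 0.129 CPM in parental and 27.8, 26.3 and 26.6 CPM in LTED-B libraries. The groups lay far apart (log2 fold change 7.51, SE 0.15, adjusted p = 8.55e-18), and SNRPN was at 0.167 ± 0.0492, 0.133 ± 0.0506 and 0.195 ± 0.0403 CPM in LTED-A, LTED-D and LTED-E. SNURF, which shares exons with SNRPN so that the split of reads between them is uncertain, had no count in the 12 libraries of the other MM134 groups and was at 1.04 to 1.74 CPM in LTED-B, at least 16.4-fold above the parental floor. Its promoter, which lies inside this run, is shown because SNURF had no count outside LTED-B. It is followed by the promoters of TMSB4X and BRWD3, which are among the genes lower in LTED-B than in every other group. Each is the 250 bases before the RefSeq start (GRCh38.p14), at chr15:24954737-24954986 on the plus strand, chrX:12974860-12975109 on the plus strand and chrX:80809878-80810127 on the minus strand, written 5′ to 3′ with CpG sites in capitals.
SNURF: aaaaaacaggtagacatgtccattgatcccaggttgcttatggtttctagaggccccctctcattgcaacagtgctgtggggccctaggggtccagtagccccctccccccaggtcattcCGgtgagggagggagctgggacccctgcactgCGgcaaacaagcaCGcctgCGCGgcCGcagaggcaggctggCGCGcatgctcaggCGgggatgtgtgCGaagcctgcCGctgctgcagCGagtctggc
TMSB4X: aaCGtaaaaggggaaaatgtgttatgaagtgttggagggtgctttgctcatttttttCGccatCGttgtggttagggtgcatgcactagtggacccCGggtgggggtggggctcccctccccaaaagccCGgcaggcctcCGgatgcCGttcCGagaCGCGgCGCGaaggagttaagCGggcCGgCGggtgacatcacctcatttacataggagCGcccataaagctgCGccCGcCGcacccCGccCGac
BRWD3: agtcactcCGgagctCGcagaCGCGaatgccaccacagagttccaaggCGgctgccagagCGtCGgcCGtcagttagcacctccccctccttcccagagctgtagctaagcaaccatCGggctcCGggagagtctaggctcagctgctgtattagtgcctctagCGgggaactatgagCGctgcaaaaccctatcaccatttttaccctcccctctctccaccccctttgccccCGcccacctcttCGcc
The motif searched was CG, which reads the same on both strands. The windows hold 12, 21 and 14 CpG sites, and 48.5%, 30.2% and 44.8% of all 35116 promoter windows of this length hold as many or more. Methylation was not measured.

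Downstream of SNURF, further transcripts of the same strand rose. SNHG14, the long noncoding host transcript of the small nucleolar RNAs (24978583 to 25420336), was at 2.55, 2.22 and 2.06 CPM in parental and 24.4, 24.3 and 23.6 CPM in LTED-B (log2 fold change 3.40, SE 0.12, adjusted p = 4.5e-14), and at 2.20 to 2.50 CPM in the other variants. PWAR5, a transcript inside it, went from 0.0867 ± 0.0265 to 13.0 ± 0.689 CPM. ENSG00000261069 and SNORD116-13, a small nucleolar RNA, were at least 116-fold and 4.37-fold higher. These 5 genes and SNRPN, which span 24823637 to 25420336, are 6 of the 18 tested genes from MKRN3 to HERC2 (33.3%, against 0.203% of all genes). All but SNRPN were named after their values were seen. SNURF lies within SNRPN, and PWAR5, ENSG00000261069 and SNORD116-13 lie within SNHG14, which overlaps SNRPN, so the 6 are not independent genes. The region was taken after the values were seen, so the share is not a test of it. The median of the other 12 was 0.04 against parental and 0.11 against the other variants. Among these 12, ENSG00000280234, on the same strand inside SNHG14, was at 3.05 CPM in parental and 4.03 in LTED-B (0.40, not called). UBE3A, a ubiquitin ligase on the opposite strand that SNHG14 overlaps, was at 156 ± 6.07 CPM in parental cells and 177 ± 2.09 CPM in LTED-B (0.18, not called), and the neighbouring imprinted genes MAGEL2 and NDN had no count. The strand setting of the counting is not stated, so reads of SNHG14 and UBE3A cannot be told apart where they overlap.

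Other genes were higher in LTED-B than in every other group by smaller steps. EGFLAM, a matrix protein of synapses and retina, was at 0.991, 0.774 and 0.709 CPM in parental and 10.3, 9.45 and 9.98 CPM in LTED-B libraries, and averaged 0.110 CPM or less in the other variants. B3GNT9, a glycosyltransferase, went from 3.37 ± 0.254 to 26.3 ± 1.51 CPM, whereas it was at 2.15, 0.455 and 0.313 CPM in LTED-A, LTED-D and LTED-E. For these genes LTED-B moved one way from parental and the other variants lay below parental. MAOA, which degrades monoamines, went from 4.65 ± 0.279 to 13.5 ± 1.03 CPM (log2 fold change 1.53, SE 0.09, adjusted p = 3.67e-11) and BHLHE40, a clock- and hypoxia-related repressor, from 62.1 ± 3.59 to 145 ± 5.25 CPM. ABCA5, a lipid transporter, rose in log2 fold change by 4.11 and exceeded the nearest variant by 0.95. DCD, which encodes dermcidin, and the chaperone gene HSPA2 each exceeded every other group by at least 0.83 on the log2 scale. GSTM2, a glutathione transferase, went from 6.25 ± 0.303 to 14.5 ± 1.06 CPM, with some reads open to assignment to its neighbour GSTM1.

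Of the 106 genes lower in LTED-B than in every other group, 82 were more than 2-fold and 27 more than 8-fold below parental. BRWD3, a bromodomain protein that reads acetylated histones (chromosome X, 80669503 to 80809877), was at 49.7, 45.8 and 47.8 CPM in parental and 0.627, 0.422 and 0.370 CPM in LTED-B libraries (log2 fold change −6.64, SE 0.09, adjusted p = 4.34e-20), and at 28.2 to 30.5 CPM in the other variants. TMSB4X, which encodes the actin monomer-binding thymosin beta 4 (chromosome X, 12975110 to 12977227), was at 321, 327 and 335 CPM in parental and 3.44, 2.18 and 2.76 CPM in LTED-B libraries (−6.87, SE 0.08, adjusted p = 1.96e-21). It was lower in the other variants too, at 112, 97.2 and 25.8 CPM, but LTED-B lay 3.21 below the nearest of them on the log2 scale. PNMT, which makes adrenaline (chromosome 17, 39667981 to 39670475), reached 2 counts at most in any library of LTED-B, at least 105-fold below parental, and was at 15.7, 12.8 and 4.87 CPM in the other variants. S100A6, a calcium-binding protein on chromosome 1, showed opposite movements: it was at 55.4, 60.2 and 59.4 CPM in parental and 2.90, 2.28 and 2.64 CPM in LTED-B (−4.48, SE 0.06, adjusted p = 9.87e-21), but at 720.1, 256 and 534 CPM in LTED-A, LTED-D and LTED-E. IER3, an immediate early survival gene, fell from 12.3 ± 0.461 to 1.72 ± 0.0497 CPM and was at 18.1 to 37.3 CPM elsewhere. NYNRIN had the same pattern, at 1.46 ± 0.145 CPM in parental, 0.270 ± 0.0315 in LTED-B and 5.21 to 8.11 in the other variants.

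B3GALNT1, which makes the globoside blood group antigen (27.2 ± 0.587 to 0.471 ± 0.225 CPM), TNFRSF14, a receptor of the tumour necrosis factor family (13.9 ± 0.704 to 0.278 ± 0.0992 CPM), and CNKSR1, a scaffold of RAS signalling (12.1 ± 1.17 to 1.31 ± 0.0446 CPM), also fell in LTED-B. The other variants lay between 9.30 and 37.1 CPM for each of them. DOK6, an adaptor of receptor tyrosine kinases, was low in all variants (0.935 to 1.82 CPM against 15.9 ± 2.13 in parental cells) and lowest in LTED-B at 0.186, 0.141 and 0.123 CPM.

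Among the lower genes, 10 protein-coding genes were neighbours on chromosome 17q21. With genes averaging 5 CPM or more in windows of 40, no stretch of neighbouring genes met the limit of a median of 0.5 (log2). Windows of 20 did so from TMEM101 to KIF18B (chromosome 17, 44011188 to 44947773). They also did so from EGFL8 to RXRB on chromosome 6 (0.89 against parental, −0.62 against the other variants). There LTED-A, LTED-D and LTED-E had medians of 2.08, 2.02 and 1.98 against parental. That span holds MHC class II genes such as HLA-DQB1, so it is not separate from the class II result given below. From PCMTD1 to CHD7 on chromosome 8 the limit was met against parental only (0.55, and −0.04 against the other variants). The chromosome 17 stretch was thus found by an alternative window and is described without a test. It was taken for its medians, so the counts that follow are not a test of it. For its 26 protein-coding genes that averaged 1 CPM or more, the median log2 fold change was −0.90 against parental (0.537-fold) and of −0.74 against the other variants (0.599-fold), with all 26 below 0 in the latter. Of these, 19 fell and 0 rose against parental, where 7.75% of all genes fell and 8.11% rose. The medians of the same genes against parental were −0.06 in LTED-A, −0.10 in LTED-D and −0.13 in LTED-E, which share the parental libraries with LTED-B. Within 1 Mb on either side, the medians of LTED-B against the other variants were −0.07 (14 genes) and 0.17 (10 genes). EFTUD2, a GTPase of the spliceosome, was at 108 ± 2.53 CPM in parental cells, 50.9 ± 1.38 in LTED-B and 119 to 130.2 in the other variants (log2 fold change against parental −1.08, SE 0.03, adjusted p = 1.88e-15). SLC25A39, a mitochondrial glutathione carrier, went from 146 ± 3.40 to 73.5 ± 2.77 CPM, CCDC43 from 42.9 ± 0.774 to 21.6 ± 0.450 CPM and LSM12 from 43.8 ± 0.530 to 26.7 ± 0.908 CPM. Copy number was not measured.

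**Figure D2:**
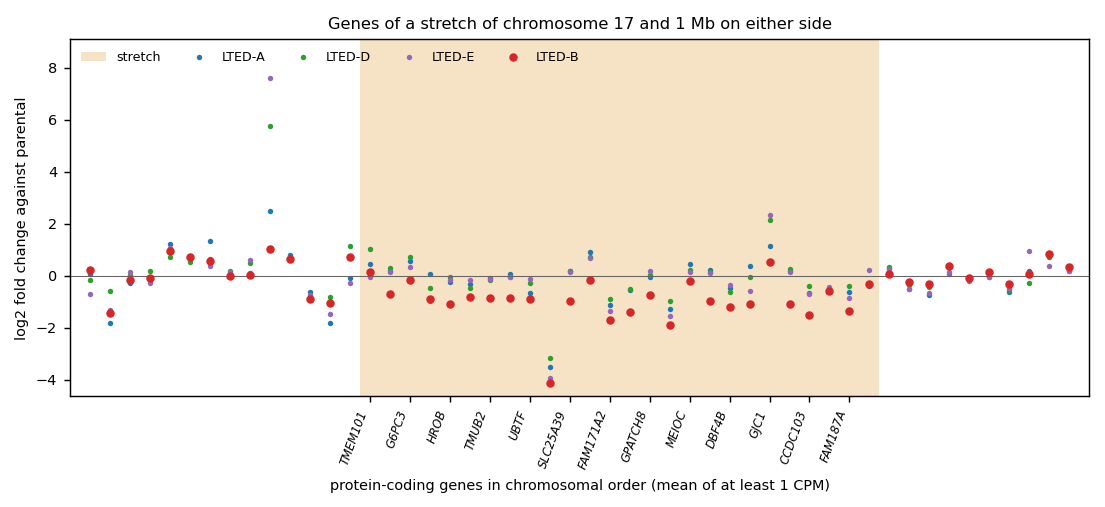
Log2 fold change of each variant against parental for protein-coding genes averaging 1 CPM or more, in chromosomal order, within the shaded stretch from TMEM101 to KIF18B (26 genes, every other name shown) and 1 Mb on either side (14 and 10 genes). LTED-B (large red points) had a median of −0.90 inside the stretch, where the other variants had medians of −0.06 to −0.13.

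A longer and weaker stretch lay on chromosome 2 and was seen only with a limit of 0.3. From DDX1 to NRBP1 (15591178 to 27442259), the median log2 fold change of 68 protein-coding genes was 0.40 against parental and 0.33 against the other variants, with 60 of 68 above 0 in the latter. Of them, 22 rose and 6 fell against parental, where 8.11% of all genes rose and 7.75% fell. Against the mean of the other variants, 8 were called higher, where 2.73% of all genes were. A further 3 were lower (4.41%, against 2.90% of all genes). The stretch was taken for its medians, so these counts and shares are not a test of it. The medians of LTED-A, LTED-D and LTED-E against the same parental libraries were 0.07, 0.05 and 0.11.

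Some genes lay near the parental level in LTED-B while each of the other 3 variants differed from LTED-B by the test. Near is a fitted fold within 1.5, which does not show equality. There were 41 such genes that were higher in each of the other variants than in LTED-B (0.157%) and 36 that were lower (0.138%). DGAT2, the enzyme of the last step of triglyceride synthesis (chromosome 11, 75759512 to 75801535), was at 5.86, 6.17 and 5.55 CPM in parental and 4.99, 5.72 and 5.25 CPM in LTED-B libraries, and at 116, 46.9 and 47.2 CPM in LTED-A, LTED-D and LTED-E. The difference from parental was −0.14 on the log2 scale (95% interval −0.27 to −0.02), and that from the mean of the other variants −3.58 (SE 0.04, adjusted p = 6.25e-20). TXNIP, an inhibitor of thioredoxin and of glucose uptake, showed the reverse: it was at 251, 250.4 and 273 CPM in parental and 281, 277 and 289.9 CPM in LTED-B (0.13, interval 0.00 to 0.26), and at 118, 0.398 and 112 CPM in the other variants. RERG, an estrogen-regulated small GTPase, was at 48.8 ± 2.33 and 46.0 ± 1.63 CPM in parental and LTED-B cells (−0.09, interval −0.18 to 0.00) and at 15.7 to 21.1 CPM elsewhere. PARP8, the cytokine gene TNF, the receptor kinase MERTK and S100A4 were likewise near parental in LTED-B and higher in the others, with LTED-B below their mean by 2.89, 2.28, 1.71 and 1.71 on the log2 scale. Their intervals against parental were −0.26 to 0.20, −0.12 to 0.92, −0.38 to 0.19 and −0.56 to 0.04, so that of TNF reaches past the 1.5-fold limit. ETFA, an electron carrier of beta-oxidation, was at 27.6 ± 0.168, 20.6 ± 1.10 and 44.2 to 54.7 CPM in parental, LTED-B and the other variants. It was within the limit but below parental (−0.42, interval −0.51 to −0.34, adjusted p = 5.32e-08).

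**Figure D3:**
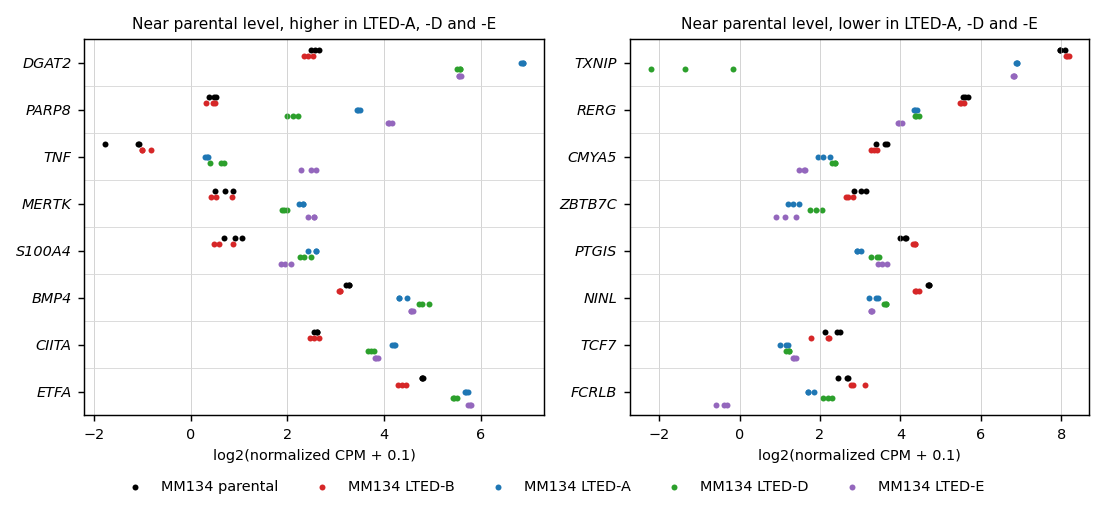
Normalized level, as log2(CPM + 0.1), of the 8 protein-coding genes in each direction that were near parental in LTED-B and differed from LTED-B in the other 3 variants. Each point is 1 library. For DGAT2 (5.32 and 5.86 CPM) and TXNIP (282 and 258 CPM), LTED-B and parental points lie side by side, away from the LTED-A, LTED-D and LTED-E points. Other genes lay further from parental within the 1.5-fold limit, such as ETFA, which was below it.

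CIITA, the master regulator of MHC class II genes, was among the genes that stayed near parental. It was at 6.06, 5.74 and 6.03 CPM in parental and 6.22, 5.75 and 5.42 CPM in LTED-B libraries (−0.03, interval −0.17 to 0.10), and at 18.3, 13.2 and 14.3 CPM in LTED-A, LTED-D and LTED-E. MHC class II molecules present peptides to helper T cells and are loaded with the help of CD74 and HLA-DM. Of 17 tested genes of class II presentation, 11 rose in LTED-B (64.7%, against 8.11% of all genes) and 0 fell against parental, with a median of 1.28. Compared with the mean of the other variants, 11 were lower, with a median of −1.68, where 2.90% of all genes were lower. Against the same parental libraries, the medians were 3.88 in LTED-A, 3.01 in LTED-D and 2.74 in LTED-E. CD74, the invariant chain, was at 22.2, 21.2 and 21.3 CPM in parental and 52.2, 53.5 and 51.8 CPM in LTED-B (1.28, SE 0.05, adjusted p = 9.66e-14), and at 318, 174 and 85.7 CPM in the other variants. HLA-DRA went from 6.92 ± 0.374 to 15.3 ± 0.357 CPM, against 44.3 to 135 CPM elsewhere. HLA-DMA, a subunit of the loading catalyst, was an exception in degree, since LTED-B (34.2 ± 0.118 CPM) lay level with LTED-D (33.7 ± 0.870) after a rise from 2.22 ± 0.302. The summed level of the list was 198 to 203 CPM in parental, 355 to 359 in LTED-B and 541 to 1089 in the other variants. HLA class II genes are polymorphic and alike, so reads may be split wrongly among them. The myeloid markers given above were higher in LTED-B than in parental cells, and 3 immune markers also rose in each other variant. Summed, the immune markers were at 31.55 to 32.57 CPM in LTED-A, 11.87 to 12.35 in LTED-D and 21.09 to 23.06 in LTED-E. The part of these markers in the class II values was not tested.

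**Figure D4:**
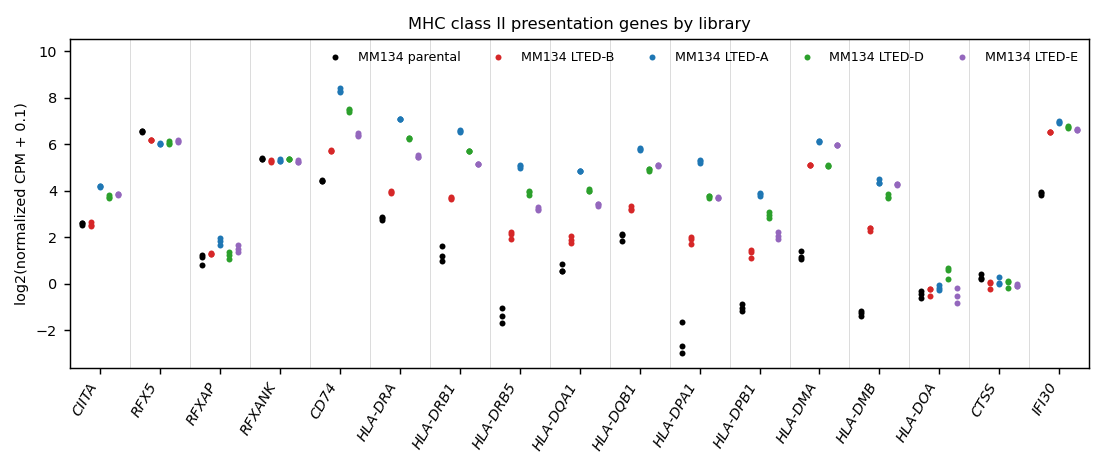
Normalized level, as log2(CPM + 0.1), of the 17 tested genes of MHC class II presentation in the 15 MM134 libraries, 1 point per library. CIITA was at 5.80 CPM in LTED-B and 5.94 in parental, while HLA-DRA and CD74 in LTED-B lay between parental and the other variants.

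RNA of the estrogen receptor gene was not reduced in LTED-B. For MM134 LTED cells the study reports less receptor protein than in parental cells, and RNA does not measure protein. ESR1 was at 369, 347 and 363 CPM in parental and 516, 549 and 533 CPM in LTED-B libraries, a log2 difference of 0.57 (SE 0.03, adjusted p = 5.76e-12) that did not reach the fold threshold. It was 1.01 above the mean of the other variants (149, 467 and 265 CPM), a called difference, though only 0.19 above LTED-D. Of 22 classical estrogen-induced genes 9 rose (40.9%, against 8.11% of all genes) and 7 fell (31.8%, against 7.75%), with a median of −0.02. TFF1, a secreted trefoil peptide, rose from 4.28 ± 0.00833 to 565 ± 22.6 CPM and AGR2 from 3.17 ± 0.650 to 283 ± 11.6 CPM, while MYC fell from 19.3 ± 0.327 to 1.32 ± 0.131 CPM and the progesterone receptor gene PGR fell in log2 fold change by 2.17. GREB1, a cofactor of the receptor, was at 71.7, 71.1 and 66.5 CPM in parental and 72.7, 77.6 and 75.2 CPM in LTED-B, and at 16.8, 58.8 and 48.0 CPM elsewhere. STC2, a secreted glycoprotein, fell from 37.0 ± 2.30 to 18.4 ± 0.890 CPM and was still above the other variants (1.99 to 11.3 CPM).

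Genes of lipid synthesis moved in both directions. Of 24 genes of fatty acid synthesis and storage 4 rose (16.7%) and 9 fell (37.5%) against parental (median −0.12), where 8.11% and 7.75% of all genes did. Of the 24, 3 were higher and 4 lower than the mean of the other variants. FASN, the fatty acid synthase, was at 369, 370.4 and 349.8 CPM in parental and 1416, 1458 and 1342 CPM in LTED-B (1.95, SE 0.05, adjusted p = 1.49e-16), against 1859 to 3152 CPM elsewhere. SCD, which makes oleate, went from 468 ± 19.0 to 1126 ± 21.5 CPM, level with LTED-D (1125 ± 7.51). The desaturases FADS1 and FADS2, which overlap in part, fell in log2 fold change by 4.54 and 5.04. PLIN2, a coat protein of lipid droplets, fell from 4.68 ± 0.244 to 1.98 ± 0.239 CPM, and LTED-B was lower than every other group (3.82 to 12.7 CPM in the other variants).

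Of 29 genes of sterol regulation and cholesterol synthesis 8 rose (27.6%) and 0 fell against parental (median 0.30), where 8.11% and 7.75% of all genes did. Of the 29, 3 were lower than the mean of the other variants, as were 2.90% of all genes. SREBF1, the regulator of fatty acid synthesis, went from 108 ± 3.29 to 190.0 ± 6.96 CPM and STARD4, a sterol carrier, from 2.18 ± 0.124 to 12.3 ± 0.538 CPM. SQLE, the squalene epoxidase, was at 158 ± 5.26 and 202 ± 2.25 CPM, below the call, and at 298 to 499.8 CPM in the other variants. Of 11 genes of cholesterol efflux 2 rose (18.2%) and 0 fell.

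In fatty acid oxidation and ketone metabolism 8 of 26 genes rose (30.8%, against 8.11% of all genes) and 2 fell (median 0.35). The share that fell (7.69%) was near the 7.75% over all genes. OXCT1, which uses ketone bodies, fell: it was at 77.9, 72.0 and 79.6 CPM in parental and 22.5, 21.8 and 23.1 CPM in LTED-B libraries (−1.77, SE 0.04, adjusted p = 5.43e-17), and at 60.9 to 76.8 CPM in the other variants. It was thus particular to LTED-B. HADHB, of the trifunctional protein and within the chromosome 2 stretch, went from 75.4 ± 2.30 to 151 ± 4.03 CPM.

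Of 25 WNT and BMP genes 6 rose and 10 fell against parental (median −0.53), and 1 was higher and 6 lower than the mean of the other variants (median −0.13). BMP4, a BMP ligand, was at 9.60, 9.53 and 9.16 CPM in parental and 8.47, 8.28 and 8.40 CPM in LTED-B (−0.17, interval −0.31 to −0.03), and at 20.5 to 28.1 CPM elsewhere. ID1, an inhibitor of differentiation and a target of BMP signalling, was at 36.3, 35.2 and 37.4 CPM in parental and 8.38, 8.49 and 8.33 CPM in LTED-B (−2.11, SE 0.05, adjusted p = 5.87e-17), and at 24.5 to 38.6 CPM in the other variants. ID3 went from 49.0 ± 3.23 to 26.9 ± 0.997 CPM, whereas it was at 67.2 to 83.4 CPM in the others. Both ID genes were lower in LTED-B than in every other group. ID2 did not share this pattern, with 58.5 ± 1.46 CPM in LTED-B and 63.8 to 66.6 CPM in the other variants, all under the 129 ± 4.87 CPM of parental cells, and the inhibitor SMAD6 rose from 8.69 ± 0.315 to 33.9 ± 0.173 CPM. The WNT receptor FZD7 (−3.92) and the WNT feedback gene AXIN2 (−1.94) fell in log2 fold change.

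Among 30 growth factor receptors, ligands and feedback genes 7 rose and 12 fell (median −0.16). ERBB4 rose from 5.07 ± 0.382 to 86.8 ± 1.88 CPM and ERBB2 fell from 72.8 ± 1.96 to 16.2 ± 0.554 CPM, in the same range as the other variants for ERBB4 (79.6 to 108 CPM). MET, the receptor of hepatocyte growth factor, was at 2.12, 2.54 and 2.77 CPM in parental and 0.975, 0.610 and 0.739 CPM in LTED-B (−1.67, SE 0.16, adjusted p = 6.67e-08), and at 2.56 to 10.2 CPM elsewhere. TGFA, a ligand of the EGF receptor, was at 16.8, 16.4 and 17.9 CPM in parental and 5.99, 5.30 and 6.38 CPM in LTED-B, and was at 8.89 to 9.50 CPM elsewhere. MET and TGFA were lower in LTED-B than in every other group, TGFA by a smallest difference of 0.59, just past the fold threshold. ETV5, a target of FGF and ERK signalling, rose from 0.393 ± 0.0364 to 5.36 ± 0.157 CPM, against 14.2 to 27.8 CPM elsewhere. FGFR1, amplified in this line, fell from 2257 ± 23.8 to 1078 ± 20.3 CPM.

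Of 32 genes of DNA replication and mitosis 0 rose and 3 fell (9.38%, near the 7.75% of all genes that fell; median −0.26), and 1 was lower than the mean of the other variants. Of 18 genes of G1 control 1 rose (5.56%) and 5 fell (27.8%, median −0.17). CDK6 rose from 21.2 ± 1.17 to 74.4 ± 2.35 CPM and the inhibitor gene CDKN1A fell from 49.8 ± 0.692 to 1.52 ± 0.141 CPM, with 1.97 to 4.37 CPM in the other variants.

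Of 19 mesenchymal and matrix genes 2 rose and 11 fell, with a median of −1.14. The matrix protein genes SPARC (11.5 ± 1.18 to 0.421 ± 0.0945 CPM) and FN1 (147 ± 2.62 to 39.3 ± 1.87 CPM) fell. Fibroblast markers were also higher in the parental libraries, mainly in replicate 3, and SPARC there was at 10.6, 10.9 and 12.8 CPM. CD44, a hyaluronan receptor, fell from 14.2 ± 1.65 to 2.19 ± 0.297 CPM and was yet lower in the other variants (0.198 to 0.366 CPM).

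In the remaining lists, 9 of 29 interferon-stimulated genes rose (31.0%) and 3 fell (10.3%, median 0.36), 4 of 18 genes of MHC class I presentation rose (22.2%) and 2 fell (11.1%, median 0.29), and 8 of 27 genes of hypoxia and glycolysis rose (29.6%) and 3 fell (11.1%, median 0.17). Over all genes 8.11% rose and 7.75% fell, so the falls in these lists are near the share over all genes. OAS3, a sensor of double-stranded RNA, rose from 0.288 ± 0.0603 to 6.53 ± 0.204 CPM, and IFITM3, which blocks virus entry, fell from 10.6 ± 0.137 to 1.65 ± 0.0388 CPM. Of 24 genes of the unfolded protein and integrated stress responses 11 rose (45.8%) and 1 fell (4.17%, median 0.57). TRIB3, a pseudokinase induced by amino acid stress, rose from 15.9 ± 0.756 to 76.3 ± 1.73 CPM and HSPA5, the main chaperone of the endoplasmic reticulum, by 0.87 (SE 0.07) in log2 fold change. SLC7A11, the cystine transporter, was at 5.96 ± 0.0446 and 6.31 ± 0.177 CPM in parental and LTED-B (0.08, interval −0.04 to 0.20) and at 10.2 to 35.2 CPM in the other variants. Of 23 steroid and xenobiotic enzymes 11 rose (47.8%) and 2 fell (8.70%, median 0.69). The rises were led by UGT2B15, which inactivates androgens (5.46), and HSD17B2, which oxidizes estradiol to estrone (4.10 ± 0.515 to 66.4 ± 3.16 CPM). AKR1C2, a ketosteroid reductase, was at 0.357 ± 0.0894 CPM in LTED-B and at 14.4, 0.192 and 8.32 CPM in LTED-A, LTED-D and LTED-E.

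**Figure D5:**
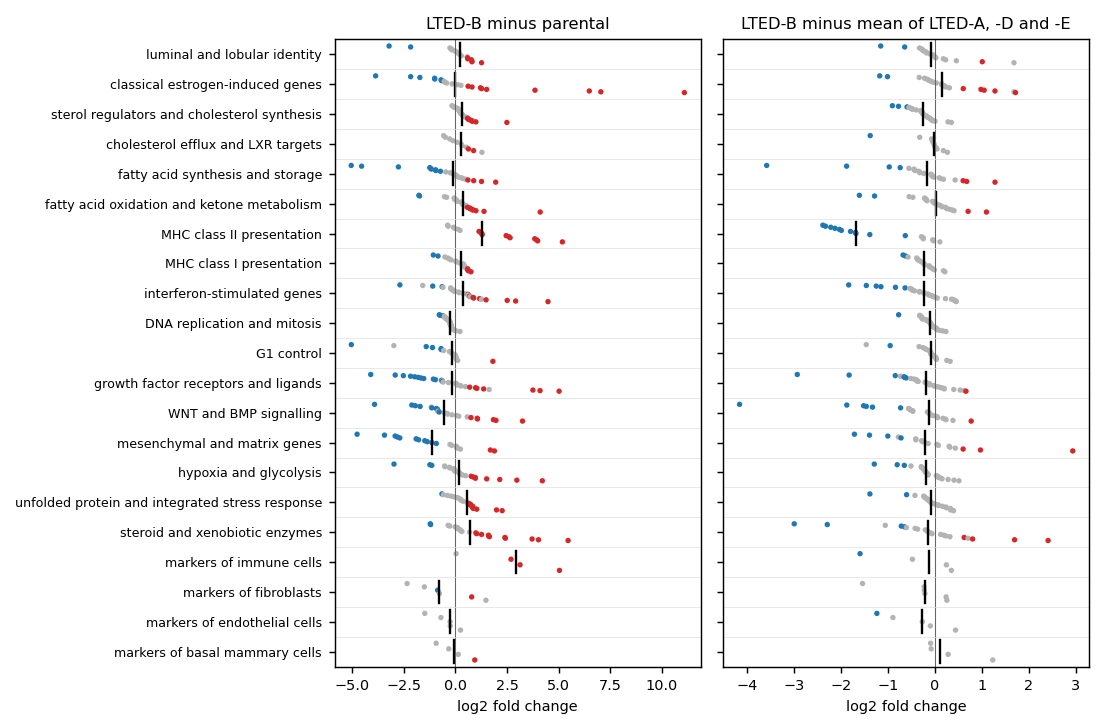
Log2 fold change of each tested member of 21 gene lists, for LTED-B against parental (left) and against the mean of the other 3 variants (right). Points are genes, red where called higher and blue where called lower, and the black bar is the list's median. MHC class II presentation had a median of 1.28 on the left and −1.68 on the right, against 0.02 over all genes in both.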

How the data were processed

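RNA of parental and LTED MM134 cells was sequenced from libraries made with a stranded total RNA kit. The authors mapped reads to hg38 with Ensembl release 82 and deposited estimated counts per gene, which the submitters' notes and methods credit to Salmon 0.6.0. The strand setting is not given in the sources used here. GENCODE v44 supplied symbols and hg38 positions, matched on the Ensembl ID. IDs outside it hold 0.376% to 0.518% of the counts of an MM134 library.

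Estimated counts were rounded, filtered with filterByExpr and scaled by TMM, and 1 quasi-likelihood model of the 15 MM134 libraries was fitted with edgeR 4.0.16 (limma 3.58.1) in R 4.3.3. P-values are two-sided and Benjamini-Hochberg adjusted. Tables and figures were made with pandas 2.3.3, numpy 2.4.6 and matplotlib 3.10.9. The comparison and gene lists were chosen with earlier results of these data known, and some lists hold genes that the study chose on these samples, so their counts are not independent evidence. Beyond list members, genes named were the 8 largest rises and falls, the 10 protein-coding genes in each direction furthest from every other group, and, among genes near parental, the 8 in each direction furthest from the other variants, all with a mean of at least 5 CPM, and leading genes of a stretch. Results for some single genes that this rule or the lists would name are left out here. SNURF, SNHG14, PWAR5, SNORD116-13, ENSG00000261069, ENSG00000280234, UBE3A, MAGEL2, NDN, ID2 and SMAD6 were named after their values were seen. Stretches were runs of windows of 40 genes, moved by 20 genes. Genes with at most 3 counts in every library of a group were treated as below detection there.

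In simulated data on 26061 genes, the test of LTED-B against parental recovered 76 of 100 genes changed 2-fold and 94 of 100 changed 4-fold, and the test against every other group 34 of 50 and 47 of 50, with 0 false calls. Changes were placed only in genes averaging 1 CPM or more, so recovery below that level was not measured. The simulated libraries held no outlying well such as the replicate 3 libraries. DESeq2 1.42.0, other filters, thresholds, scalings and subsets of libraries were alternatives.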

Additional observations from a re-analysis of the deposited data

Results flagged for a closer look

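For 35 genes the change from parental to LTED-B differed from the mean change of LTED-A, LTED-D and LTED-E by the test of that difference in the fit of all MM134 libraries (fold above 1.5 and adjusted p under 0.001). The values are log2 of LTED-B minus the mean of the other 3 variants. They were taken by the naming rule of the comparison, so they are the far end of a longer list and not a random sample of it.

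Genes higher in LTED-B than in every other group were SNRPN (7.32), EGFLAM (7.77), B3GNT9 (5.27), MAOA (2.03), GSTM2 (1.32), DCD (2.46), ABCA5 (1.62), BHLHE40 (1.56) and HSPA2 (2.17). Genes lower in LTED-B than in every other group were PNMT (−7.88), BRWD3 (−5.94), B3GALNT1 (−5.88), TNFRSF14 (−5.50), S100A6 (−7.47), CNKSR1 (−3.38), TMSB4X (−4.55), IER3 (−3.99), DOK6 (−3.10) and NYNRIN (−4.53). Genes near the parental level in LTED-B and higher in the other variants were DGAT2 (−3.58), PARP8 (−2.89), TNF (−2.28), MERTK (−1.71), S100A4 (−1.71), BMP4 (−1.51), CIITA (−1.38) and ETFA (−1.28), and those near parental and lower in the other variants were TXNIP (4.04), RERG (1.28), CMYA5 (1.36), ZBTB7C (1.28), PTGIS (1.05), NINL (0.99), TCF7 (0.88) and FCRLB (1.82).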

How the results depend on the processing

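The 6 counts of genes (up, down, higher than every group, lower than every group, near parental and higher elsewhere, near parental and lower elsewhere) were 2114, 2021, 53, 106, 41 and 36. They became 1273, 1301, 25, 58, 14 and 6 with a minimum fold of 2, and the first 4 became 4290, 4184, 214 and 297 with no minimum fold. With an adjusted p under 0.05, 96 genes were higher than every group and 60 near parental and lower elsewhere, and 17 were of the latter kind under a narrower limit on near. DESeq2 gave 2007, 1969, 42, 106, 43 and 33. With counts thinned to the smallest library they fell to 1931, 1791, 38, 83, 41 and 28. Of the genes higher and lower than every group, 37 and 81 were kept under thinning. Leaving out 1 of the 15 libraries in turn gave ranges of 1956 to 2137, 1875 to 1999, 42 to 53, 95 to 105, 38 to 46 and 31 to 37. Leaving out parental replicate 3 and LTED-B replicate 3 together, an alternative chosen after seeing the data, gave 1982, 1979, 52, 104, 45 and 35. Replicate numbers name wells and do not pair the samples (correlations of same-numbered deviations −0.04, −0.04 and −0.10), and with the replicate number as a block the counts were 2066, 1972, 49, 103, 40 and 35.

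Stretches of neighbours were 0 against parental and 0 against the other variants in windows of 40 genes. They were 3 and 2 with windows of 20 genes, 1 and 1 with genes of at least 1 CPM, 4 and 2 with a limit of 0.3, and 0 and 0 with windows of 80 genes. The limit of 0.3 on chromosome 17 also took in a run of near-identical RNU2 gene copies, which share reads. Of 5991 values of single genes over 26 alternatives, 5824 kept their side of the threshold, 167 lost the call and 0 changed direction. Settings that only relax a limit (adjusted p under 0.05, no minimum fold) cannot remove a call, and each kept all 232 values. A minimum fold of 2 gave 73 of the lost calls. DESeq2-type size factors shifted the median of all genes by −0.01. The libraries are wells of 1 derivation, so no alternative speaks for another derivation.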
